A study of Mus musculus with 2 samples.

Results

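The genes Ebf1, Ebf2, Ebf3, Nhlh1 and Nhlh2 encode transcription factors of newly born neurons, and they were followed here across the cells of the peripheral mouse retina. They were taken by symbol from the 27998 genes listed for both libraries, which gave 5 members, each with 1 listed gene. The members were chosen by their measured levels in immature neurons of these same libraries, so their levels are a description and carry no test. Droplet-based 3′ single-cell RNA sequencing, in which each captured transcript is counted once through a unique molecular identifier (UMI), was done on retina at postnatal day 8. The DKO_Skp2het library came from mice of genotype alphaCre, Rbf/f and p107-/- that were also skp2+/-, and the DKO library from alphaCre, Rbf/f, p107-/- mice. Both libraries therefore share the loss of p107 in every cell and the Cre-driven loss of Rb, which the alpha enhancer of Pax6 limits to the peripheral retina, and cells that Cre did not reach keep Rb. The labels call DKO_Skp2het tumor-resistant and DKO tumor-prone.

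With 1 library per genotype there was no replicate check, so every difference below is between 2 libraries, and every interval covers counting error only. The number of animals behind each library is not given in the sources used here. The DKO_Skp2het library held 5196 barcodes with 25766024 UMIs, and the DKO library 3621 barcodes with 24413761 UMIs. After filters and removal of likely doublets, 4978 DKO_Skp2het cells with a median of 3800 UMIs and 3515 DKO cells with a median of 4863 UMIs were kept. The 2 libraries shared 30 cell barcodes. Levels are given in CPM, the UMIs of a gene per 1000000 UMIs of the cells concerned. Skp2 stood at 57.0 CPM in DKO_Skp2het and 80.3 CPM in DKO, a ratio of 0.710 (95% interval 0.662 to 0.761). Rb1 was at 21.99 and 22.6 CPM and Rbl1, the gene of p107, at 32.8 and 32.5 CPM in DKO_Skp2het and DKO. Whether the 3′ tags of these genes lie in the deleted parts is not given in the sources used here, so their presence checks no label.

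Ebf proteins bind DNA as dimers through a domain held by a zinc knuckle, and they pair through a helix-loop-helix region. In the retina they act in postmitotic precursors of several neuron types, among them amacrine, horizontal, ganglion and OFF cone bipolar cells, and Ebf1 is also the factor that sets B cell fate. Nhlh1 and Nhlh2 are small basic helix-loop-helix proteins that bind E-box sequences together with the broadly made E proteins, appear briefly as neurons leave the cell cycle, and are held off DNA when Id proteins take up the E proteins. Nhlh2 is best known from hypothalamic neurons that control body weight and fertility.

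The members lie on 5 chromosomes of the mm10 genome, which is the GRCm38 assembly, and all are protein-coding in the GENCODE annotation. Nhlh1 (ENSMUSG00000051251) occupies chr1:172052292-172057573 on the minus strand and Nhlh2 (ENSMUSG00000048540) chr3:102010076-102015492 on the plus strand, and no other gene overlaps either. Ebf1 (ENSMUSG00000057098) spans chr11:44617317-45008091 on the plus strand, Ebf2 (ENSMUSG00000022053) chr14:67233292-67430918 on the plus strand, and Ebf3 (ENSMUSG00000010476) chr7:137193673-137314445 on the minus strand. Ebf1 is overlapped by 1 gene on the other strand, Ebf2 by 5 and Ebf3 by 2. Of these overlapping genes, 1 at Ebf1, 1 at Ebf2 and 0 at Ebf3 are among the genes listed for the libraries. Whether counting used the strand is not given in the sources used here. The part of antisense reads in the Ebf counts was not tested.

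The stretches in front of the start sites are shown because the Ebf and Nhlh protein families bind short known motifs. The RefSeq promoter table (GRCm38.p6) held windows for 4 of the 5 members, all but Ebf2, each from 250 bases before to 50 bases after a start. The bases printed lie before the RefSeq start and outside annotated exons of the gene, and 1 of the 2 Ebf1 windows lay in an exon and is not shown. The Ebf1 stretch that is shown lies inside the gene, past its annotated start at 44617317 and before an inner RefSeq start. The other stretches lie before their genes. Capitals mark matches to the E-box letters CANNTG or to the Ebf-type palindrome CCCNNGGG.
Nhlh1, chr1:172057597-172057846, minus strand: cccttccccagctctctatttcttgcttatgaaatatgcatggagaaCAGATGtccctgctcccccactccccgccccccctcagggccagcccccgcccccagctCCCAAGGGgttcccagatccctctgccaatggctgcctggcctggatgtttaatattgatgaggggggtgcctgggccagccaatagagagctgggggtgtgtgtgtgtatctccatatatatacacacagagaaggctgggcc
Nhlh2, chr3:102009895-102010075, plus strand: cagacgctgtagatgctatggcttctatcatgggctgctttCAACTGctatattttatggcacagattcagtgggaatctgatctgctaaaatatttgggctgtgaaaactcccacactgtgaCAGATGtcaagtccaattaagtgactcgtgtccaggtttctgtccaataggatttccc
Ebf3, chr7:137314446-137314695, minus strand: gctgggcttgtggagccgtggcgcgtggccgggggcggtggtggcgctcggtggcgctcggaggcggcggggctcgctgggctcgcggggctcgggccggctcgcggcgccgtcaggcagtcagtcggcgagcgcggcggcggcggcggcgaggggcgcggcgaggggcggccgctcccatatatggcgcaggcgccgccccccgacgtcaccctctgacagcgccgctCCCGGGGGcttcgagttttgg
Ebf1, chr11:44619978-44620227, plus strand: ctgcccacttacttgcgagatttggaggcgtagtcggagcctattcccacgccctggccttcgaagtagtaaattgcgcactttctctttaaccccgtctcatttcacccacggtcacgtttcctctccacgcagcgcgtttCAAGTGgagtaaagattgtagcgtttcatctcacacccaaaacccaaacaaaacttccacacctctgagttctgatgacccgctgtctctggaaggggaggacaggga

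The Nhlh2 stretch held 2 E-boxes within 181 bases, the Nhlh1 stretch 1 and the Ebf1 stretch 1 within 250 bases, and the Ebf3 stretch held none. The Ebf-type palindrome occurred once in the Nhlh1 stretch and once in the Ebf3 stretch. Both strands were searched, and both motifs read the same on either strand. Of 32851 RefSeq windows, 66.2% held an E-box and 11.8% the palindrome in their first 250 bases, and 55.7% held an E-box in their first 181 bases. The E-box variant CAGCTG, which CANNTG includes, and the E2F-type letters TTTCCCGC matched none of the 4 stretches. A match to such letters is a description of sequence, not of binding.

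Cells were clustered without the 5 members and without cell cycle genes, both libraries together, and clusters were named from marker lists. Clusters 5 and 7 carried the immature neuron-like name, with 523 DKO_Skp2het and 436 DKO cells. Cluster 5 was led by Klhl35, Igfbpl1, Gm16183 and Megf11, with Nhlh2 among its 10 leading genes, and cluster 7 by Lrfn5, with Ebf3, Nhlh2 and Ebf1 among its 10 leading genes. Cluster 5 held 318 DKO_Skp2het and 290 DKO cells and cluster 7 held 205 DKO_Skp2het and 146 DKO cells. The 12 immature neuron markers summed to 9860 CPM in DKO_Skp2het and 9814 CPM in DKO in cluster 5, and to 7959 and 7725 CPM in cluster 7. The list did not set these clusters apart from amacrine-like cells, since amacrine-like cluster 22 had 10756 CPM in DKO_Skp2het and 10157 CPM in DKO. Within the list, the early factor Sox11 stood at 3253 and 3507 CPM in the immature neuron-like cells against 303 and 314 CPM in the amacrine-like cells, whereas the later neurite gene Stmn2 stood at 290 and 202 CPM against 1620 and 1476 CPM. The immature neuron-like cells also held amacrine markers. The glycine transporter gene Slc6a9 stood there at 94.5 CPM in DKO_Skp2het and 89.6 CPM in DKO, against 13.0 and 11.3 CPM in the amacrine-like cells. Slc32a1 stood at 84.7 and 70.9 CPM against 197 and 214 CPM, and Tfap2b at 54.5 and 90.7 CPM against 1049 and 1373 CPM. The GABA-making enzyme gene Gad1 had 0 and 3 UMIs there. The 12 amacrine markers summed to 1671 and 1749.5 CPM in cluster 5 and to 2119 and 2277 CPM in cluster 7. Igfbpl1, a gene of young neurons, stood at 445 and 418 CPM in the immature neuron-like cells against 10.9 and 17.4 CPM in the amacrine-like cells. Other listed markers went the way of Stmn2. Dcx stood at 40.0 CPM in DKO_Skp2het and 15.8 CPM in DKO against 153 and 160 CPM. Gap43 stood at 80.1 and 75.2 CPM against 564 and 561 CPM, and Tubb3 at 381 and 317 CPM against 441 and 451 CPM. Thus Sox11 and Igfbpl1, and not Stmn2, Dcx, Gap43 or Tubb3, were higher in the immature neuron-like than in the amacrine-like cells. Rod-like cluster 20 had both as well, with Sox11 at 2501 CPM in DKO_Skp2het and 2334 CPM in DKO and Igfbpl1 at 308 and 208 CPM, against 2154 and 2358 CPM and 235 and 245 CPM in cluster 7. Neither Nhlh2 nor the Ebf genes were on the list.

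Nhlh2 was the member found in nearly every immature neuron-like cell. It counted 3045 UMIs (1297 CPM, 95% interval 1251 to 1343) in DKO_Skp2het and 3379 UMIs (1216 CPM, 1175 to 1258) in DKO. At least 1 UMI of Nhlh2 was found in 94.1% of the DKO_Skp2het and 96.8% of the DKO cells, and after every cell was thinned to 1500 UMIs the shares were 79.7% and 81.0%. In microglia-like cells, which should lack the gene, 2 of 41 DKO_Skp2het and 3 of 29 DKO cells had a UMI, at median depths of 7519 and 9600 UMIs, and 1 cell of each library after thinning. The ratio of DKO_Skp2het to DKO was 1.07 (1.01 to 1.12) over both clusters, 0.981 (0.922 to 1.04) in cluster 5 and 1.15 (1.06 to 1.25) in cluster 7. Its level was higher in cluster 7, with 1770 and 1539 CPM in DKO_Skp2het and DKO, than in cluster 5, with 1090 and 1110 CPM.

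Nhlh1 had the opposite order of clusters. Nhlh1 counted 98 UMIs (60.0 CPM) in DKO_Skp2het and 136 UMIs (65.0 CPM) in DKO in cluster 5, but only 22 UMIs (30.8 CPM) and 16 UMIs (23.4 CPM) in cluster 7. Over both clusters Nhlh1 stood at 51.1 CPM in DKO_Skp2het and 54.7 CPM in DKO, with a ratio of 0.934 (0.729 to 1.19), an interval that holds both a lower and a higher level. No Nhlh1 UMI was found in the 41 and 29 microglia-like cells.

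Ebf1 and Ebf3 both stood higher in cluster 7. Ebf1 counted 797 UMIs (1116 CPM) in DKO_Skp2het and 674 UMIs (984 CPM) in DKO in cluster 7, and 741 UMIs (453 CPM) and 1230 UMIs (587 CPM) in cluster 5. Ebf3 counted 265 UMIs (371 CPM) in DKO_Skp2het and 222 UMIs (324 CPM) in DKO in cluster 7, and 97 UMIs (59.3 CPM) and 178 UMIs (85.0 CPM) in cluster 5. The 2 clusters stood on different sides of 1. In cluster 5 the ratio of DKO_Skp2het to DKO was 0.772 (0.704 to 0.846) for Ebf1 and 0.698 (0.539 to 0.899) for Ebf3, while in cluster 7 it was 1.13 (1.02 to 1.26) and 1.15 (0.955 to 1.38). The difference between the clusters was not tested. Summed over both, the ratios were 0.956 (0.893 to 1.02) for Ebf1 and 1.07 (0.926 to 1.24) for Ebf3. Cells with an Ebf1 UMI made up 53.5% of immature neuron-like DKO_Skp2het cells and 53.7% of DKO cells after thinning (78.97% and 84.2% before), and Ebf3 cells 21.8% and 16.5% (37.1% and 42.0% before). Microglia-like cells with an Ebf1 UMI numbered 4 of 41 in DKO_Skp2het and 1 of 29 in DKO before thinning and 2 and 0 after it. With an Ebf3 UMI there were 2 DKO_Skp2het cells and 0 DKO cells before thinning and 0 in both libraries after it.

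Ebf2 was nearly absent from these libraries. Over all kept cells it counted 33 UMIs (1.38 CPM) in DKO_Skp2het and 53 UMIs (2.26 CPM) in DKO, and no cell had more than 3. In the immature neuron-like cells it counted 12 UMIs in DKO_Skp2het and 19 in DKO, of which 10 and 19 lay in cluster 5.

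A difference was counted as called when the ratio passed 1.5-fold in either direction and its interval left out 1, among genes with at least 50 UMIs over both libraries in the cells compared. In the immature neuron-like cells, 0 of the 4 members that reached 50 UMIs were called, whereas 3.2% of the 8465 genes tested were called lower and 2.59% higher in DKO_Skp2het. In cluster 5 alone, 0 of 4 members were called, beside 2.64% of 7488 genes called lower and 2.5% higher, and in cluster 7, 0 of 3, beside 3.21% of 4270 genes lower and 3.63% higher. These values moved with the handling of depth and clusters: with every cell thinned to the same depth, the Ebf3 ratio over both clusters was 1.41 and that of Nhlh1 1.33, and with cells under 3420 UMIs left out of both libraries the Ebf1 ratio was 0.771 and the Ebf3 ratio 0.804. With the members kept among the genes used for clustering, the ratios of Ebf1 and Ebf3 were 0.772 and 0.691.

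**Figure D1:**
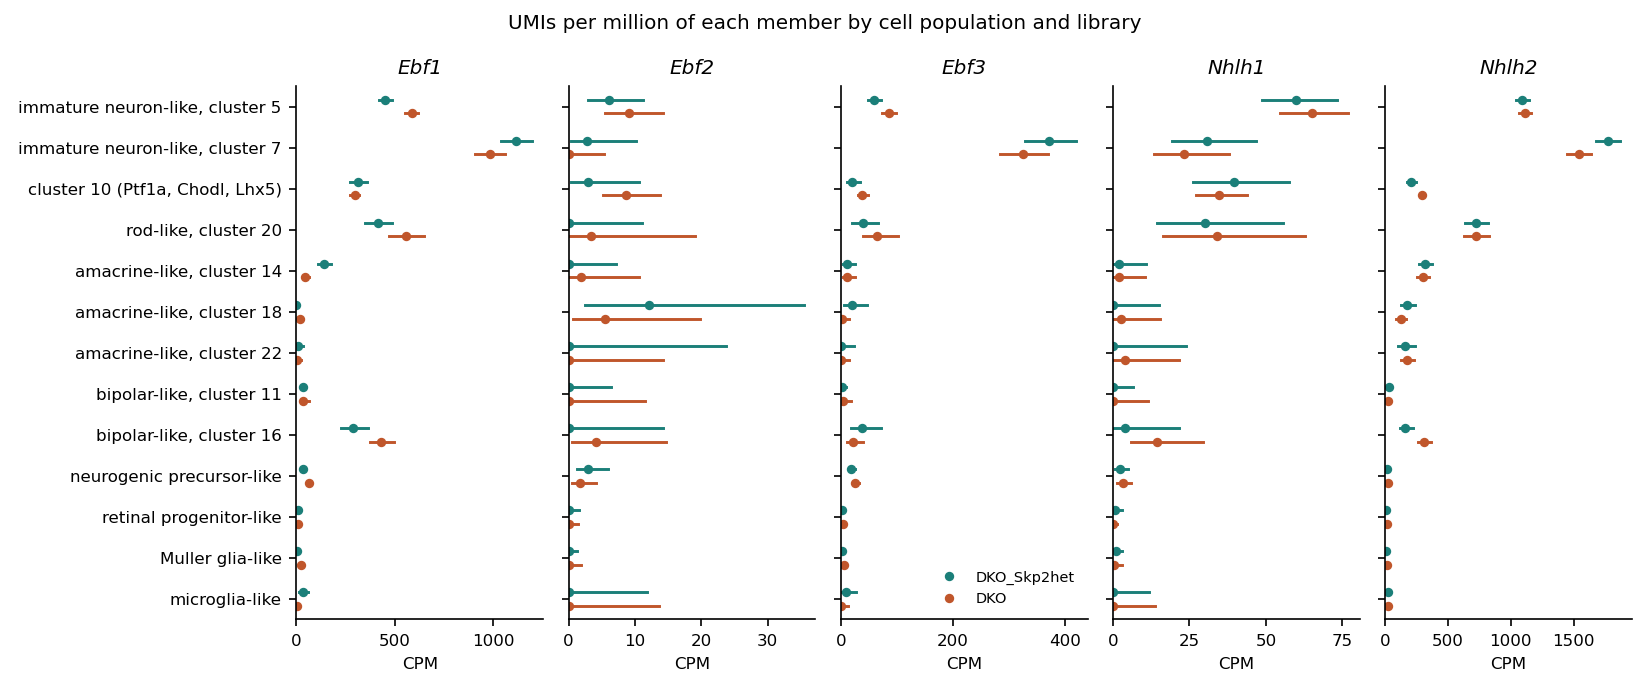
CPM of each member in named clusters or classes, DKO_Skp2het in green above DKO in orange, points with 95% Poisson intervals and a separate linear axis for each gene. Nhlh2, Ebf1 and Ebf3 are highest in cluster 7 in both libraries, Nhlh1 is highest in cluster 5 (60.0 and 65.0 CPM), and the intervals of Ebf2 are wide in most populations.

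Outside the immature neuron-like cells each member had its own order of populations. For Nhlh2, 3 small clusters stood below clusters 7 and 5 and above the rest in both libraries. Rod-like cluster 20 had 724 CPM (635 to 822) in DKO_Skp2het and 722 CPM (628 to 826) in DKO. Cluster 24, an unnamed group of 15 DKO_Skp2het and 22 DKO cells led by Rims1, Scg2, Pnoc and Calb2, had 597 CPM (463 to 757) in DKO_Skp2het and 552 CPM (461 to 655) in DKO. Cluster 25, led by Ier5l, Rasl11b and Gadd45b, had 581 CPM (474 to 705) and 874 CPM (732 to 1034). It was an unnamed group of 19 DKO_Skp2het and 17 DKO cells, of which 17 and 17 were dividing. The intervals of these 3 clusters overlapped in DKO_Skp2het, and in DKO those of clusters 24 and 25 did not. Amacrine-like cells were lower, at 254 CPM (223 to 289) in DKO_Skp2het and 214 CPM (188 to 243) in DKO. Cluster 10, led by Ptf1a, a factor of amacrine and horizontal precursors, Chodl and Ripply3, had 208 CPM (175 to 245) and 294 CPM (271 to 318), so that its interval overlapped that of the amacrine-like cells in DKO_Skp2het and lay above it in DKO. Rod-like cells, cluster 20 included, had 200 CPM in DKO_Skp2het and 179 CPM in DKO. At the low end, in the same order of libraries, stood Muller glia-like cells with 6.28 and 11.2 CPM and retinal progenitor-like cells with 8.77 and 11.7 CPM, below the 22.3 and 22.1 CPM of microglia-like cells.

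For Ebf1, cluster 7 stood above every other cluster in both libraries, and clusters 25 and 20 stood near cluster 5. Cluster 25 had 446 CPM (353 to 555) in DKO_Skp2het and 615 CPM (497 to 752) in DKO, and cluster 20 had 413 CPM (347 to 489) and 555 CPM (473 to 648), intervals that overlapped that of cluster 5 in DKO_Skp2het (421 to 487) and in DKO (555 to 621). Bipolar-like cluster 16 had 289 CPM in DKO_Skp2het and 432 CPM in DKO. Endothelial-like cells had 369 CPM in DKO_Skp2het and 300 CPM in DKO and cluster 10 had 316 and 297 CPM, and the intervals of cluster 10 and endothelial-like cells overlapped in both libraries. Endothelial-like cells numbered 9 in DKO_Skp2het and 12 in DKO, of which 9 and 3 had an Ebf1 UMI, and Nhlh2 had 0 UMIs in them, where a count of 3 would be 18.8 and 23.7 CPM. In cluster 24, where Nhlh2 was high, Ebf1 had 0 UMIs in DKO_Skp2het and 8 in DKO. Ebf1 was also found in cluster 3, an unnamed cluster led by Fabp7, Rdh5 and Rgr, with the neuronal factor gene Neurod4 among its 10 leading genes and 374 of 542 DKO_Skp2het and 176 of 241 DKO cells dividing. It had 153 UMIs (67.0 CPM) of Ebf1 in DKO_Skp2het and 109 UMIs (74.9 CPM) in DKO there. Unnamed cluster 8, whose 142 DKO_Skp2het and 207 DKO cells were all dividing, was similar. It had 78 UMIs (67.2 CPM) of Ebf1 in DKO_Skp2het and 191 UMIs (83.3 CPM) in DKO. Retinal progenitor-like cells had 8.77 CPM of Ebf1 in DKO_Skp2het and 8.67 CPM in DKO. Ebf3 was found in cluster 25, with 18 UMIs (102 CPM) in DKO_Skp2het and 16 UMIs (104 CPM) in DKO, in cluster 10 at 20.5 and 38.6 CPM, and at 18.7 and 25.8 CPM in neurogenic precursor-like cells. Nhlh1 was found in cluster 10 at 39.5 CPM (26.0 to 57.4) in DKO_Skp2het and 34.8 CPM (27.2 to 43.8) in DKO, whose intervals overlapped that of the immature neuron-like cells in DKO_Skp2het (42.4 to 61.1) and not in DKO (46.3 to 64.1).

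In rod-like cells Ebf1 and Nhlh2 lay mainly in the small cluster 20. Of the Ebf3 UMIs of rod-like cells, 10 of 23 in DKO_Skp2het and 19 of 39 in DKO lay in rod-like cluster 9. Cluster 20, with 35 cells in each library, had Ebf1 at 413 CPM in DKO_Skp2het and 555 CPM in DKO and Nhlh2 at 724 and 722 CPM. The cluster gave 137 of the 161 Ebf1 UMIs of DKO_Skp2het rod-like cells and 163 of the 237 in DKO. In it the 10 rod markers summed to 8268 CPM in DKO_Skp2het and 9306 CPM in DKO and the 12 immature neuron markers to 6383 and 6488 CPM, and its median depth was 7005 UMIs in DKO_Skp2het and 7373 in DKO. The part of undetected doublets in these values was not tested. Over all rod-like cells 0 of the 3 members with 50 UMIs were called, by the rule above, beside 2.75% of 7025 genes lower and 1.94% higher.

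Over the whole libraries Ebf1 was found in a larger share of cells with Nhlh2 than without it, whereas inside the immature neuron-like clusters these shares lay close together and differed in direction between the libraries. After thinning, 597 DKO_Skp2het and 570 DKO cells had an Nhlh2 UMI, and 43.7% and 42.6% of these also had an Ebf1 UMI, against 5.04% and 7.74% of cells without Nhlh2. Inside the immature neuron-like clusters Ebf1 was found in 52.5% of DKO_Skp2het and 55.2% of DKO cells with Nhlh2 and in 57.5% and 47.0% of cells without it. With Ebf3 the gap was wider in DKO_Skp2het, where 66.7% of the 114 immature neuron-like cells with an Ebf3 UMI had Ebf1 against 49.9% of those without, while in DKO the shares were 56.9% of 72 cells and 53.0%. In cluster 7, 58 of 205 DKO_Skp2het and 25 of 146 DKO cells held 3 or more members after thinning, and in cluster 5, 24 of 318 and 20 of 290. Cells with none of the 5 numbered 38 of 523 in DKO_Skp2het and 37 of 436 in DKO.

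Over all kept cells every member was at a lower CPM in DKO_Skp2het. Ebf1 stood at 112 CPM in DKO_Skp2het and 164 CPM in DKO, with a ratio of 0.684 (0.651 to 0.719). Nhlh2 stood at 172 CPM in DKO_Skp2het and 222 CPM in DKO, with a ratio of 0.775 (0.744 to 0.808). The ratio was 0.739 (0.661 to 0.826) for Ebf3, 0.681 (0.565 to 0.819) for Nhlh1 and 0.608 (0.381 to 0.957) for Ebf2. Only the rare Ebf2 was called, 1 of 5 members, beside 1.6% of 13475 genes called lower and 2.74% called higher. After thinning, the ratio stayed below 1 for Ebf1 (0.773), Ebf2 (0.777) and Nhlh2 (0.813), but was 1.04 for Ebf3 and 1.07 for Nhlh1. Without the immature neuron-like cells and cluster 10, Ebf2 had 19 UMIs in DKO_Skp2het and 16 in DKO, a ratio of 1.05 on the other side of 1. The immature neuron-like cells gave 74.0% of all Nhlh2 UMIs in DKO_Skp2het and 65.1% in DKO, 57.2% and 49.6% of Ebf1 UMIs, 64.8% and 54.1% of Ebf3 UMIs, and 60.6% and 53.5% of Nhlh1 UMIs. In all remaining cells, cluster 10 included, the ratio was between 0.555 and 0.567 for Ebf1, Ebf3, Nhlh1 and Nhlh2. The share of all genes past 1.5-fold was not taken in these cells, so no call is given. With cluster 10 left out as well, the ratios were 0.627 for Ebf1, 0.627 for Ebf3 and 0.686 for Nhlh2. For Nhlh1 it was then 0.754 (0.509 to 1.11). At equal depth, cells with an Nhlh2 UMI made up 12.0% of DKO_Skp2het cells and 16.2% of DKO cells, and cells with an Ebf1 UMI 9.68% and 13.4%. For Ebf3 these shares were 3.23% and 3.24%, and for Nhlh1 1.12% and 1.05%.

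**Figure D2:**
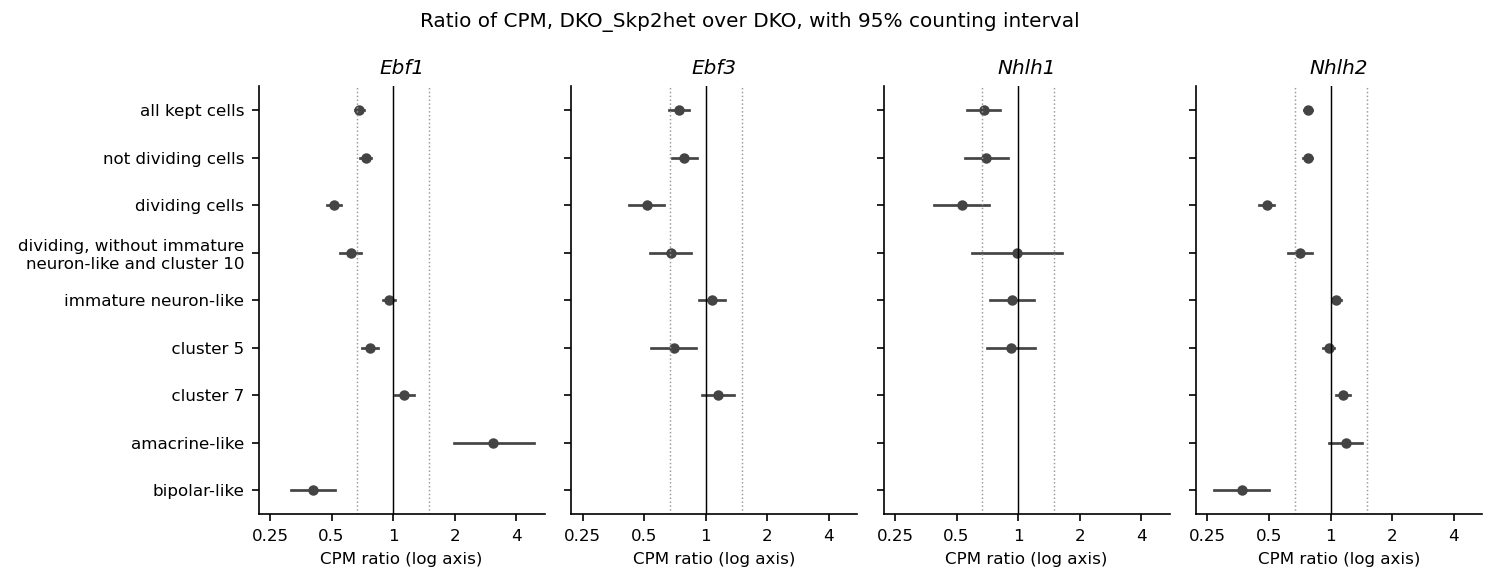
Ratio of CPM, DKO_Skp2het over DKO, on a log axis for Ebf1, Ebf3, Nhlh1 and Nhlh2, with 95% counting intervals, the solid line at 1 and dotted lines at 1.5-fold; populations with under 50 UMIs of the gene are left out. Ratios in dividing cells lie between 0.487 and 0.532, those in immature neuron-like cells between 0.934 and 1.07.

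Cells were called dividing when they held 3 or more UMIs of 30 core proliferation genes after thinning, which gave 2424 DKO_Skp2het and 2126 DKO cells. This is a threshold on a range, with 346 DKO_Skp2het and 187 DKO cells at 3 UMIs and 490 and 268 cells just below it, and the dividing cells had a median of 3 thinned UMIs of the immature neuron markers in each library. In these cells Nhlh2 counted 832 UMIs (66.3 CPM) in DKO_Skp2het and 2035 UMIs (136 CPM) in DKO, a ratio of 0.487 (0.449 to 0.528). Ebf1 counted 859 UMIs (68.5 CPM) in DKO_Skp2het and 1990 UMIs (133 CPM) in DKO, a ratio of 0.514 (0.474 to 0.557). Both genes were at about the same low ratio as Ebf3, at 12.3 CPM in DKO_Skp2het and 23.9 CPM in DKO (0.514, 0.423 to 0.623), and Nhlh1, at 5.02 and 9.43 CPM (0.532, 0.389 to 0.721). All 4 members with at least 50 UMIs were called lower, beside 3.14% of 12161 genes called lower and 2.73% called higher, and Ebf2, with 14 and 35 UMIs, was under the minimum. After thinning the ratio was 0.497 for Ebf1, 0.641 for Ebf3 and 0.414 for Nhlh2, but 1.00 for Nhlh1, which then had 16 UMIs in DKO_Skp2het and 14 in DKO. The contrast was known when the members were chosen, so the count describes them and supports nothing. In cells below the threshold the ratio was 0.732 (0.686 to 0.782) for Ebf1, 0.785 (0.681 to 0.906) for Ebf3, 0.699 (0.549 to 0.891) for Nhlh1 and 0.772 (0.735 to 0.811) for Nhlh2.

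These UMIs were unevenly spread over the dividing cells. The immature neuron-like clusters and cluster 10 together made up 98 of 2424 dividing cells in DKO_Skp2het (4.04%) and 242 of 2126 in DKO (11.4%). They gave 58.5% of the Nhlh2 UMIs of dividing cells in DKO_Skp2het and 75.0% in DKO, 45.2% and 60.1% of Ebf1 UMIs, 22.1% and 47.9% of Ebf3 UMIs, and 47.6% and 75.2% of Nhlh1 UMIs. Since 7 of the 10 leading genes of cluster 10 and 3 of those of cluster 7 differed in level between the libraries, the numbers of their cells are given without comparing them. Without these clusters, the dividing cells had an Ebf1 ratio of 0.620 (0.552 to 0.696), an Ebf3 ratio of 0.674 (0.531 to 0.853), an Nhlh2 ratio of 0.710 (0.617 to 0.815) and an Nhlh1 ratio of 0.985 (0.593 to 1.63). Ebf1 alone was then called, beside 2.56% of 11925 genes called lower and 2% called higher. The cells left include the 17 DKO_Skp2het and 17 DKO dividing cells of cluster 25, which was high in Nhlh2 and Ebf1. The part of cluster 25 in these ratios was not tested.

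**Figure D3:**
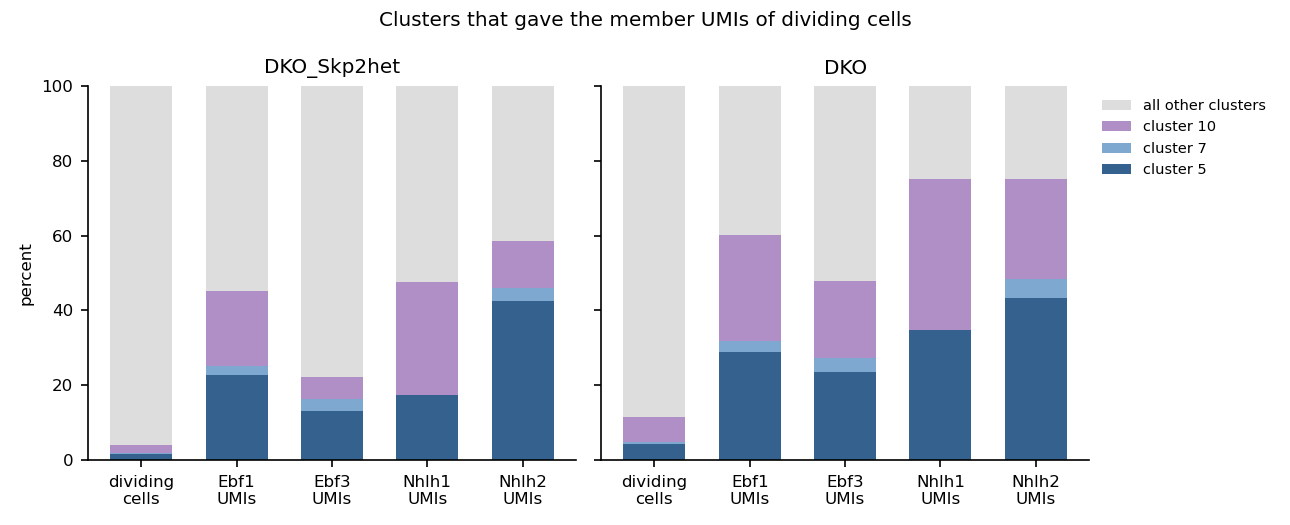
Percent of dividing cells (first bar of each panel) and of the Ebf1, Ebf3, Nhlh1 and Nhlh2 UMIs of dividing cells that came from clusters 5, 7 and 10 or from all other clusters, DKO_Skp2het left and DKO right. Clusters 5, 7 and 10 hold 4.04% and 11.4% of the dividing cells and 58.5% and 75.0% of their Nhlh2 UMIs.

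Inside the immature neuron-like clusters, dividing cells held members too, with Nhlh2 lower and Ebf1 higher than in the other cells of cluster 5. The dividing cells numbered 42 in DKO_Skp2het and 91 in DKO in cluster 5, and 3 and 12 in cluster 7. Nhlh2 in the dividing cells of cluster 5 stood at 955 CPM in DKO_Skp2het and 1031 CPM in DKO, against 1129 and 1165 CPM in its other cells. Ebf1 in them stood at 526 CPM (455 to 605) in DKO_Skp2het and 670 CPM (616 to 727) in DKO, against 432 CPM (397 to 470) and 530 CPM (490 to 572) in the other cells of cluster 5, with overlap of the intervals in DKO_Skp2het and none in DKO. Dividing cells of cluster 10 had Ebf1 at 315 CPM in DKO_Skp2het and 298 CPM in DKO and Nhlh2 at 191 and 288 CPM.

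The dividing share was lower among cells with a UMI of Ebf1, Ebf3, Nhlh1 or Nhlh2 than among cells without one, in both libraries. After thinning, 16.4% (13.5 to 19.6) of 597 DKO_Skp2het cells and 35.3% (31.3 to 39.3) of 570 DKO cells with an Nhlh2 UMI were dividing, against 53.1% and 65.4% of the cells without one. For Ebf1 the dividing shares were 28.4% (24.4 to 32.7) in DKO_Skp2het and 47.3% (42.8 to 52.0) in DKO with a UMI, against 50.9% and 62.5% without. For Ebf3 they were 23.0% in DKO_Skp2het and 39.5% in DKO with a UMI, and for Nhlh1 26.8% of 56 cells and 37.8% of 37 cells. Of the few cells with an Ebf2 UMI, 6 of 11 in DKO_Skp2het and 5 of 10 in DKO were dividing. The share was lower in DKO_Skp2het than in DKO among cells with and without each of these 4 members, and the intervals of the cells with a UMI overlapped between libraries for Nhlh1 alone. The median depth of the cells with an Nhlh2 UMI was 3728 UMIs in DKO_Skp2het and 5114.5 in DKO, and its part in these shares beyond thinning was not tested.

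**Figure D4:**
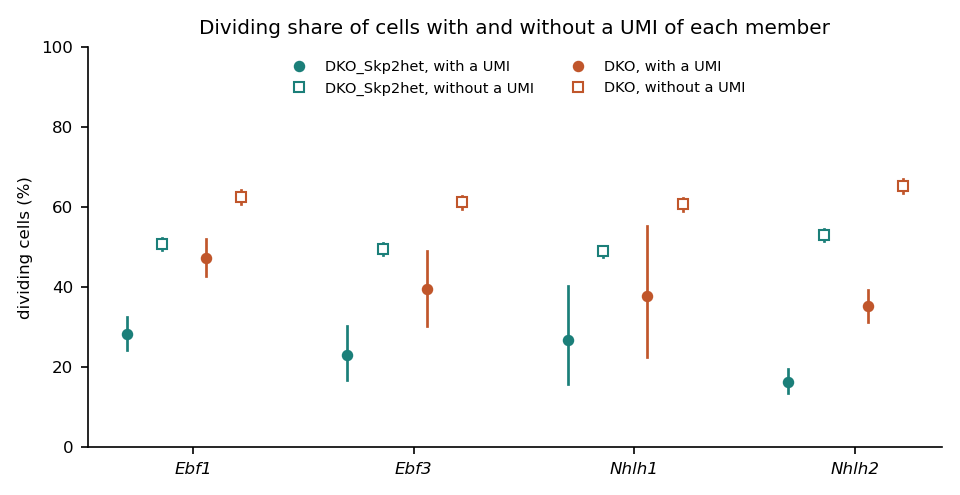
Percent of cells called dividing among cells with (filled circles) and without (open squares) a UMI of Ebf1, Ebf3, Nhlh1 or Nhlh2 after thinning to 1500 UMIs per cell, DKO_Skp2het in green left of DKO in orange, with exact 95% binomial intervals. For Nhlh2 the shares with a UMI are 16.4% and 35.3%, below those without a UMI in both libraries.

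In amacrine-like cells, 167 in DKO_Skp2het and 183 in DKO, Nhlh2 was the member held by the most cells, and Ebf1 was higher in DKO_Skp2het in the summed class through cluster 14. Nhlh2 counted 234 UMIs (254 CPM) in DKO_Skp2het and 246 UMIs (214 CPM) in DKO, a ratio of 1.19 (0.987 to 1.42) that was not called, and it was present in all 3 amacrine-like clusters, between 161 and 319 CPM in DKO_Skp2het and between 123 and 299 CPM in DKO. Cells with an Nhlh2 UMI made up 29.3% in DKO_Skp2het and 21.9% in DKO after thinning (53.9% and 59.6% before), above the microglia-like shares. After thinning the Nhlh2 ratio was 1.60 (1.13 to 2.26), and with the members kept in the clustering it was 1.67 (1.43 to 1.96), both of which pass the rule for a call. Ebf1 counted 74 UMIs (80.4 CPM) in DKO_Skp2het and 30 UMIs (26.1 CPM) in DKO, a ratio of 3.07 (1.99 to 4.87). It was called, 1 of the 2 members that reached 50 UMIs, beside 2.86% of 6229 genes called higher and 2.02% lower.

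The Ebf1 difference rested on few cells. Amacrine-like cluster 14, led by Cartpt, Sst and Cbln2, gave 73 of the 74 DKO_Skp2het UMIs, in 15 of 102 cells, and 23 of the 30 DKO UMIs, in 7 of 94 cells, which made the ratio 3.21 (1.99 to 5.38) and again a call, beside 3.39% of 3837 genes called higher and 2.42% lower. Cluster 18 went the other way, with 0 Ebf1 UMIs in DKO_Skp2het and 6 in DKO, and cluster 22 had 1 in each. With finer clusters (resolution 2.0) the amacrine-like class held 5 Ebf1 UMIs in DKO_Skp2het and 8 in DKO and the ratio was 0.847, on the other side of 1, and with a marker gate in place of clusters it was 1.31. In cluster 14 the amacrine markers summed to 5250 CPM in DKO_Skp2het and 6508 CPM in DKO with all 12 detected in both, and the rod markers to 479 and 89.6 CPM with 10 and 7 of 10 detected. The part of these rod transcripts in the Ebf1 value was not tested. Ebf3 counted 11 UMIs in DKO_Skp2het and 7 in DKO in the amacrine-like cells, and Nhlh1 counted 1 and 3.

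In bipolar-like cells most Ebf1 and Nhlh2 UMIs lay in cluster 16, whose leading genes Vsx1, Scgn, Grik1 and Lhx3 include genes known from OFF cone bipolar cells. The cluster also held genes known from ON bipolar cells, so it is not named as 1 of the 2 kinds. Grm6 stood there at 328 CPM in DKO_Skp2het and 318 CPM in DKO, against 963 and 864 CPM in bipolar-like cluster 11. Trpm1 stood at 216 and 179.5 CPM against 869 and 567 CPM. The bipolar-like cells numbered 203 in DKO_Skp2het and 120 in DKO. Ebf1 counted 93 UMIs (112 CPM) in DKO_Skp2het and 223 UMIs (275 CPM) in DKO, of which 75 and 212 lay in cluster 16, and the class ratio was 0.407 (0.316 to 0.520). Nhlh2 counted 60 UMIs (72.3 CPM) in DKO_Skp2het and 159 UMIs (196 CPM) in DKO, of which 42 and 152 lay in cluster 16, and its ratio was 0.368 (0.269 to 0.498). Both of the 2 members that reached 50 UMIs were called lower, beside 4.72% of 5088 genes called lower and 3.34% higher. Cluster 11, led by Pcp2, Gng13, Trpm1 and Grm6, known from ON bipolar cells, had 18 UMIs of Ebf1 in DKO_Skp2het and 11 in DKO, and 18 and 7 of Nhlh2.

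The class held 149 DKO_Skp2het and 69 DKO cells of cluster 11 and 54 DKO_Skp2het and 51 DKO cells of cluster 16. Within cluster 16 the Ebf1 ratio was 0.669 (0.507 to 0.874), from 289 CPM in DKO_Skp2het and 432 CPM in DKO, and was not called, and the Nhlh2 ratio was 0.522 (0.362 to 0.739), from 162 and 310 CPM, and was, beside 3.25% of 2706 genes called lower and 2.44% higher. The median depth of cluster 16 was 3477 UMIs in DKO_Skp2het and 7961 UMIs in DKO, and the 12 immature neuron markers summed to 3724 CPM with 11 detected and to 4875 CPM with all detected. Sox11 stood at 840 CPM in DKO_Skp2het and 1397 CPM in DKO there, against 3733 and 3883 CPM in cluster 5. The part of depth and of immature transcripts in these ratios was not tested.

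Among the genes that work with the members are those of the E proteins, partners of the Nhlh factors. Of these, Tcf4 and Tcf12 stood at similar CPM in both libraries over all kept cells, and Tcf3 stood higher in DKO_Skp2het. The Tcf3 ratio was 1.16 (1.11 to 1.21) over all kept cells and 1.18 (1.11 to 1.24) in dividing cells. In immature neuron-like cells it was 0.939 (0.771 to 1.14). Over all kept cells Tcf4 was at 948 CPM in DKO_Skp2het and 965 CPM in DKO, Tcf3 at 173 and 150 CPM and Tcf12 at 121 and 117 CPM, and 0 of 3 were called in all kept, dividing or immature neuron-like cells. The Id genes, whose proteins hold E proteins off DNA, were on the higher side in DKO_Skp2het: all 4 lay above 0 in log2 difference (taken with 5 CPM added to each level), with a median of 0.21 against 0.02 over all genes tested, in all kept cells, and with a median of 0.23 against 0.02 in dividing cells. Id3 alone was called, at 258 CPM in DKO_Skp2het and 158 CPM in DKO over all kept cells, a ratio of 1.63 (1.57 to 1.70), and at 228 and 140 CPM in dividing cells, beside 2.74% of genes called higher in all kept cells and 2.73% in dividing cells. In immature neuron-like cells Id3 had 35 UMIs in DKO_Skp2het and 28 in DKO, a ratio of 1.48 (0.874 to 2.52). Over all kept cells the ratios of Id1 (1.13) and Id2 (1.19) were of about the size of that of Tcf3.

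Of the Ebf partners, the zinc finger gene Zfp423 stood at 32.6 CPM in DKO_Skp2het and 39.3 CPM in DKO over all kept cells, and at 165 and 166 CPM in immature neuron-like cells. Its relative Zfp521 stood at 12.5 CPM in DKO_Skp2het and 12.1 CPM in DKO over all kept cells, and neither was called in all kept, dividing or immature neuron-like cells. Of the 6 LIM-only and LIM-binding cofactors 0 were called in all kept or dividing cells, and in immature neuron-like cells 1 of the 4 tested was, Lmo1, with 30 UMIs in DKO_Skp2het and 64 in DKO and a ratio of 0.555 (0.347 to 0.869), beside 3.2% of genes called lower there. Ebf4, the remaining gene of the family, had 65 UMIs in DKO_Skp2het and 95 in DKO over all kept cells and was called lower in dividing cells, with 28 and 55 UMIs and a ratio of 0.607 (0.370 to 0.973), beside 3.14% of genes called lower there.

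Proneural and differentiation factors, which act around the exit from the cell cycle, lay mostly on the lower side in DKO_Skp2het over all kept and over dividing cells. Over all kept cells 1 of 14 tested was called lower, the neuronal zinc finger gene Scrt1 (12.4 CPM in DKO_Skp2het and 19.0 CPM in DKO), beside 1.6% of all genes tested, and for 11 of 14 the log2 difference was negative. The median was -0.21, against 0.02 over all genes. In dividing cells 5 of 14 were called lower, Scrt1, Scrt2, Myt1, Myt1l and Neurod6, with ratios from 0.482 for Scrt1 to 0.605 for Neurod6, beside 3.14% of all genes tested in these cells. The early factor gene Neurog2 lay on the other side there, at 71.6 CPM in DKO_Skp2het and 53.8 CPM in DKO, which is not past 1.5-fold. In immature neuron-like cells 0 of 13 were called, 7 of 13 were below 0 and the median was -0.05. Of the immature neuron genes, 2 of 11 were called lower in dividing cells, Igfbpl1 (28.9 CPM in DKO_Skp2het and 55.8 CPM in DKO) and Elavl3 (126 and 201 CPM), beside the same 3.14% of genes, and 0 of 11 were called lower in immature neuron-like cells, where Dcx was called higher, with 94 and 44 UMIs and a ratio of 2.53 (1.75 to 3.70), beside 2.59% of genes called higher there.

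The profile of each member over clusters was compared with that of 8980 other genes, by the Pearson correlation of log2(CPM + 5) over 49 sums of 1 cluster in 1 library. These points share libraries, depth and the clustering itself, so the values are descriptions. Among the members, Ebf1 ran closest to Ebf3 (r = 0.81) and Nhlh1 (r = 0.80), Nhlh1 was at 0.78 with Nhlh2, Ebf1 and Nhlh2 were at 0.67, and the pairs of Ebf2 lay between 0.32 and 0.54. The gene most like Ebf1 was Prdm13 (r = 0.89), a zinc finger gene needed for a subset of amacrine cells, followed by Mfap4, Igfbpl1, Gm16183 and Kcnmb4os2. Nhlh1 was most like Igfbpl1 (r = 0.90), then Prdm13, Klhl35, Six2 and Trp53i11. The genes closest to Nhlh2 were Cabp1 (r = 0.86), which encodes a neuronal calcium-binding protein, the glycine receptor gene Glra2, Apc, Cdh22 and Celf4, none of which was on the list for Ebf1 or Nhlh1. Ebf3 was most like Ier5 (r = 0.78), then Prdm13, Hif1a, Sox11 and Mfap4, and Ebf2, with few UMIs, most like Bhlhe22 (r = 0.64), Tfap2c, Six2, Hpca and Tle4. Igfbpl1 and Sox11 are also on the marker list that named the clusters.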

How the data were processed

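The deposited values are raw UMI counts for each gene in each barcode. Per the submitters' processing notes they were made with Cell Ranger 2.2.0 on mm10; the authors' barcode filter is not given in the sources used here. Barcodes were dropped under 500 detected genes or above 20% mitochondrial UMIs, which took out 2 DKO_Skp2het and 1 DKO barcodes. Doublets were scored against 2 simulated doublets per cell, and the top scores, 0.8% for each 1000 barcodes, were removed (216 and 105). Cells were clustered (2000 variable genes, 30 components, 15 neighbours, leidenalg 0.10.2 at resolution 1, 31 clusters), leaving out the members and 106 cell cycle genes. A cluster took the name of a cell type from marker lists of 18 types where the markers' mean log2 fold was at least 1 and 3 markers passed 2-fold. Levels are CPM of the population's summed counts with exact Poisson intervals, shares have Clopper-Pearson intervals, and ratios have conditional binomial intervals, all at 95%. The ratio's interval was checked on counts simulated with Poisson error only. Such counts hold no variation between cells, animals or libraries, so the check says nothing on that variation. Computations used scipy 1.17.1, igraph 0.11.9 and scikit-learn 1.9.0 under Python 3.11.15. Of the 27998 listed genes, 27645 matched GENCODE by identifier. Named genes are the members, the pathway lists and the 5 genes most like each member. Members, lists and alternatives were chosen with earlier results of these data known. Settings tried were other cell filters, depth handling, scaling, clustering, gates and pseudocounts.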

Additional observations from a re-analysis of the deposited data

How the results depend on the processing

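No paired analysis was possible because each genotype has 1 library. Of 120 recomputed values of the ratios in all kept, dividing and immature neuron-like cells, 89 stayed within the counting interval of the reported ratio. The settings without effect beyond it were the gene and mitochondrial filters, median-of-ratios scaling, both resolutions, doublets kept, barcodes shared by both libraries left out and 5 core UMIs. Some of these hardly changed the cells. The 1000-gene filter removed no cell. The 10% mitochondrial filter kept 4975 of 4978 DKO_Skp2het and 3511 of 3515 DKO cells, and leaving out shared barcodes kept 4948 and 3486. Values from these settings, which the 89 include, could hardly move. Over all kept cells, thinning gave ratios (DKO_Skp2het over DKO) of 0.773 for Ebf1, 1.04 for Ebf3, 1.07 for Nhlh1 and 0.813 for Nhlh2, and holding both libraries to the higher minimum depth 0.622 for Ebf1 and 0.639 for Ebf3. Leaving out immature neuron-like cells and cluster 10, an alternative chosen after seeing the data like that on shared barcodes, gave 0.627 for Ebf1, 1.05 for Ebf2 (across 1), 0.627 for Ebf3 and 0.686 for Nhlh2. In dividing cells thinning gave 0.641 for Ebf3, 1.00 for Nhlh1 (16 and 14 UMIs) and 0.414 for Nhlh2, the depth floor 0.565 for Ebf1 and 0.558 for Nhlh2, and leaving out the same clusters 0.620, 0.674, 0.985 and 0.710 for Ebf1, Ebf3, Nhlh1 and Nhlh2. In immature neuron-like cells thinning gave 1.07 for Ebf1, 1.41 for Ebf3 and 1.33 for Nhlh1, the depth floor 0.771, 0.804 and 1.01 for Ebf1, Ebf3 and Nhlh2, members kept in the clustering 0.772, 0.691 and 0.972, and a marker gate 0.746, 0.843 and 0.869 for the same 3 genes. The gate took 2576 DKO_Skp2het and 1894 DKO cells, of which 20.03% and 22.5% were in the immature neuron-like clusters. The Ebf1 ratio in amacrine-like cells ranged from 0.847 to 4.38 over 12 settings and that of Nhlh2 from 1.03 to 1.67, and those of Ebf1 and Nhlh2 in bipolar-like cells stayed below 1 in all 12 (0.372 to 0.547 and 0.358 to 0.481). With 1 UMI as the minimum, the genes called higher numbered 344 against 219 in immature neuron-like, 358 against 178 in amacrine-like and 274 against 170 in bipolar-like cells, and those called lower 214 against 126 in amacrine-like and 463 against 240 in bipolar-like cells. The causes of these shifts were not tested. Ebf2 and Nhlh1 are limited by few UMIs.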
